A study of Mus musculus with 28 samples.

Results

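The comparison of 9 Chronic Drinking mice with 9 Acute Drinking mice asked how the amygdala transcriptome differed between repeated and single access to alcohol. These 18 mice were all those labelled with either kind of drinking, of 28 mice in all, and the remaining 10 Water Drinking mice were used as controls. All were adult female C57BL6/J mice, individually housed, with 2 bottles on the cage. Acute Drinking mice had a choice of 20% alcohol and water on 1 day, the last of a 28-day period. Chronic Drinking mice had the same choice on 14 days of that period, every other day, and Water Drinking mice drank water only. The mice came in 2 batches, the first with 4 Acute, 3 Chronic and 4 Water mice and the second with 5 Acute, 6 Chronic and 6 Water mice. RNA came from micropunches meant to take in the basolateral and central nuclei, and each library is 1 mouse.

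Both groups drank on the last day, so the comparison sets a first exposure against the last of many. Chronic mice took in more alcohol on that day than Acute mice, so drinking history and last-day intake cannot be told apart here. The amygdala joins a glutamatergic, cortex-like basolateral complex to a GABAergic, striatum-like central nucleus rich in neuropeptides such as dynorphin, neurotensin and corticotropin-releasing hormone. Glucocorticoid-induced genes, immediate early genes and chromatin regulators are commonly examined after alcohol, because stress hormone release, neuronal activity and histone acetylation are all known to respond to it.

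Totals ran from 20117248 to 22548961 estimated counts in Acute mice and from 20135215 to 22569562 in Chronic mice. With batch means removed, Chronic mice had 328690 more counts on average (exact two-sided permutation test within batches over 16170 regroupings, p = 0.0435, where the smallest possible p is 6.18e-05). That p ranged from 0.0155 to 0.0805 when 1 mouse was left out, and was above 0.05 without any single Acute mouse but 33, 34 or 35, or without any Chronic mouse but 37, 38 or 6. In the second batch, Chronic mice 1 to 5 had 20675140 to 20890964 counts, Chronic mouse 6 had 20135215, and the Acute and Water mice had 20004380 to 20361343. The same 5 mice also stood apart in *Actc1*, which encodes the actin of heart muscle: it had 14 to 22 counts in each of them and at most 1 count in any of the other 23 mice, Chronic mouse 6 included. Its mean count lay below the minimum of 10 used for the test, and without that minimum it was the only gene called (adjusted p = 0.0052 by edgeR). Whether these features and the alcohol history of the 5 mice are connected was not tested, and values without these 5 mice are given where a result rests on them. No exact test separated the groups on the main axes of variation: p was 0.648 on the first principal component, which held 19.2% of the variance, and 0.446 on the second, which held 8.0%. Of 14 marker genes of pallial excitatory neurons 14 were tested, and of 12 markers of the central amygdala 11 were, so markers of both labelled nuclei were present.

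No gene passed the test for a difference between Chronic and Acute mice. Of 16266 genes that averaged 10 or more counts, 0 (0%) had an adjusted p below 0.05 in the quasi-likelihood test of edgeR, fitted with a term for batch, and the smallest adjusted p was 0.998. Before adjustment, 723 genes (4.44%) had p below 0.05, of which 317 (1.95%) were higher and 406 (2.5%) lower in Chronic mice. DESeq2 and limma-voom also called 0 genes, with 693 and 897 below 0.05 before adjustment. In no gene did the 9 Chronic and the 9 Acute mice separate completely once batch means were removed (0%).

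The measured differences were small, and for well-expressed genes they were measured closely. The median log2 fold change, Chronic over Acute, was -0.00089 across all genes tested, with quartiles of -0.045 and 0.047, and 76.0% of genes lay within 0.1 of 0. Among 11723 genes averaging 100 or more counts, the 95% confidence interval of the fold change stayed within 1.2-fold in either direction for 87.3% and within 1.5-fold for 98.5%. Over all 16266 genes the corresponding shares were 64.8% and 90.0%. A p that misses the threshold does not show that a gene was equal in both groups.

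**Figure D1:**
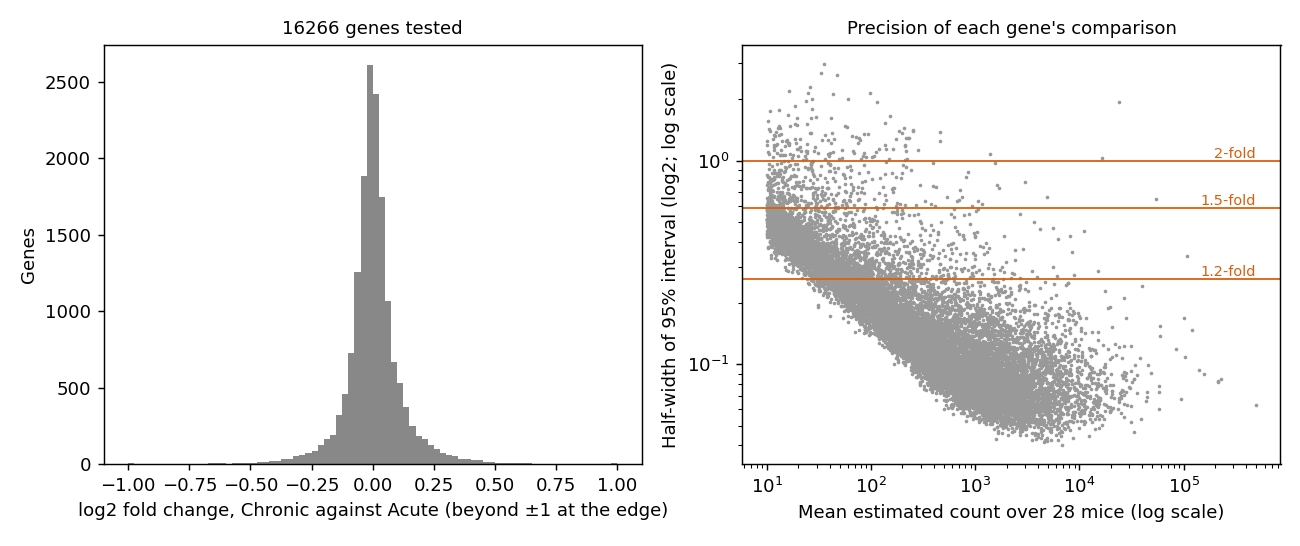
Left, histogram of the log2 fold change of Chronic over Acute mice for the 16266 genes tested (x axis, log2; y axis, number of genes). Right, half-width of each gene's 95% confidence interval (log2, on a log axis) against its mean estimated count over 28 mice (log axis), with lines at 1.2-fold, 1.5-fold and 2-fold; most genes with at least 100 counts lie below the 1.5-fold line.

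The 2 batches hold different mice and so give separate measurements of the same contrast. The first batch alone gave 745 genes (4.58%) below an unadjusted p of 0.05 and the second 649 (3.99%), with 0 genes past the adjusted threshold in either. Of all 16266 genes, 32 were below 0.05 in both, of which 10 had the same direction and more had opposite directions. How many would do so by chance was not computed. Across all 16266 genes the log2 fold changes of the batches had a Pearson r of -0.012 and a Spearman rho of -0.00091, a description over genes, which are not independent replicates. The test of the difference between batches called 0 genes (0%), with a smallest adjusted p of 0.308 and 729 genes (4.48%) below 0.05 before adjustment.

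Those 10 genes were *Nfix*, *Usp3*, *Gm867*, *Ghsr*, *Erich1*, *Foxk1*, *Crem*, *G530011O06Rik*, *BB031773* and *Gm6277*, a set picked out after its values were seen apart from *Usp3*, *Erich1*, *Foxk1* and *Crem*. *Ghsr*, the receptor for ghrelin, had 0.303 to 0.448 CPM (counts scaled to each mouse's library size after TMM normalization) in the first batch's Acute mice and 0.663 to 0.749 in its Chronic mice, and 0.304 to 0.757 against 0.446 to 1.297 in the second. The first batch's groups did not overlap and the second's did. Its log2 fold change was 0.88 (95% confidence interval 0.35 to 1.41), on a mean of 14.7 counts per mouse, with an adjusted p of 0.998. Against Water mice, *Ghsr* was at -0.91 in Acute mice and -0.026 in Chronic mice on the same scale, 2 comparisons that share the Water mice.

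**Figure D2:**
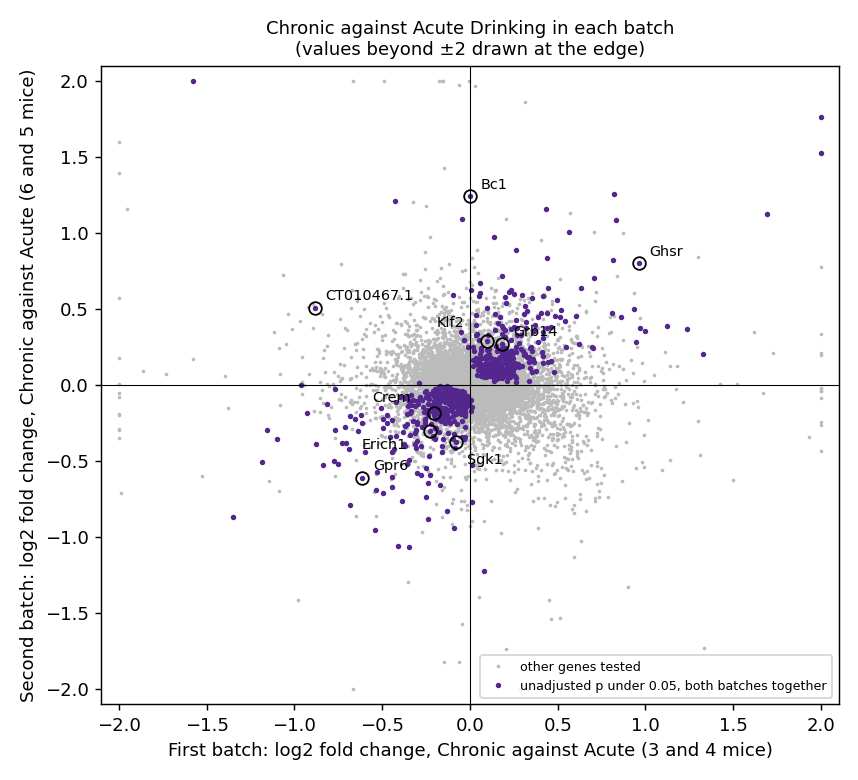
Log2 fold change of Chronic over Acute mice in the first batch (x axis, 3 Chronic and 4 Acute mice) and in the second batch (y axis, 6 and 5 mice), 1 point per gene, with the 723 genes at unadjusted p below 0.05 in both batches together in purple and 9 named genes circled. *Bc1* lies on the line of no difference in the first batch and at 1.24 in the second, while *Ghsr*, *Crem* and *Erich1* have the same sign in both.

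*Bc1* had the largest difference among 24 genes, the 12 lowest p-values of either direction, chosen with a mean of at least 50 counts and the same sign in both batches. *Bc1* is the brain cytoplasmic RNA, a short non-coding RNA made by RNA polymerase III that is carried into dendrites and represses translation there. GENCODE places it on chromosome 7 of GRCm38, plus strand, at chr7:144914470-144914637, as a single exon of 168 bases that overlaps no other annotated gene. It is shown because the finding turns on 1 short transcript. Capitals mark its longest run of A, 23 bases at positions 77 to 99, and 70 of its 168 bases are A.

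Bc1: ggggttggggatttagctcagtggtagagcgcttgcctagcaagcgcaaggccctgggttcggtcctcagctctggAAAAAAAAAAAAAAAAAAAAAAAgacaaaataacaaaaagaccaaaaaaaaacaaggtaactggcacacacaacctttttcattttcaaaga

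In the second batch, *Bc1* was at 169, 187, 220, 246 and 352 CPM in the 5 Acute mice. The 6 Chronic mice of that batch had 597, 823, 424, 541, 649 and 290.3 CPM, in order of their numbers. All but Chronic mouse 6 were above every Acute mouse. In the first batch, the 4 Acute mice had 106, 157, 165.5 and 179.9 CPM and the 3 Chronic mice had 76.7, 155.5 and 223 CPM, so these groups overlapped. Over both batches the means were 420 ± 251 CPM in Chronic mice and 198 ± 69.6 in Acute mice (SD, n = 9 each), and 206 ± 73.2 in Water mice (n = 10).

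The log2 fold change of *Bc1* was 0.82 (95% confidence interval 0.35 to 1.28; adjusted p = 0.998 by edgeR). The first batch alone gave 0.000026 and the second 1.24, where its unadjusted p was 2.3e-05. The difference between batches had an unadjusted p of 0.0052 and did not pass adjustment. Without the 5 second-batch Chronic mice that carried *Actc1* counts, the log2 fold change was 0.12 with an unadjusted p of 0.614. The mice with high *Bc1* were thus the same 5 that stood apart in total count and in *Actc1*, and the part of either feature in the *Bc1* value was not tested.

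*Grb14*, an adaptor that binds and restrains the insulin receptor, had the smallest p among genes higher in Chronic mice. It lay between 16.2 and 18.9 CPM in the first batch's Acute mice and between 17.3 and 22.9 in its Chronic mice. In the second batch the ranges were 13.2 to 16.0 and 16.3 to 19.6 CPM, with no overlap, as for 65 genes (0.4%) in that batch. Above the Acute mean of their batch in log2 CPM, the scale of all such counts, were 8 of 9 Chronic mice, the log2 fold change was 0.23 (0.12 to 0.35), and the unadjusted p was 0.00035.

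The other genes of this group reported here with higher values in Chronic mice had log2 fold changes of 0.09 to 0.32. *Thrsp*, which takes part in lipid synthesis, was at 9.33 ± 1.62 CPM in Chronic and 7.30 ± 1.29 in Acute mice, a log2 fold change of 0.32. *Alox5ap*, needed to make leukotrienes, was at 2.83 ± 0.337 and 2.32 ± 0.254 CPM (0.28). The group also held regulators of chromatin and transcription: *Brd3*, a reader of acetylated histones (0.09), *Foxk1*, a forkhead factor (0.12), and *Bicra*, a subunit of a SWI/SNF remodelling complex (0.16). *Igdcc4* (0.14), *Fam57b* (0.13), *Tmem63c* (0.14) and *Nrbp2* (0.13) were also in it. None passed adjustment.

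Among the genes of this group with lower values in Chronic mice, *Erich1* had the smallest p. It ranged from 4.97 to 5.65 CPM in the first batch's Acute mice and from 4.29 to 4.83 in its Chronic mice, which did not overlap, as for 1010 genes (6.21%) in that small batch. In the second batch it ranged from 4.42 to 5.48 and from 3.74 to 5.19 CPM. The log2 fold change was -0.27 (-0.41 to -0.13).

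*Crem*, a transcription factor of the cAMP pathway whose inducible form dampens CREB signalling, was lower than the Acute mean of its batch in 9 of 9 Chronic mice. It lay between 8.96 and 9.70 CPM in the first batch's Acute mice and between 7.91 and 8.14 in its Chronic mice, and between 7.55 and 9.44 against 6.75 and 8.13 in the second batch. The first batch's groups were apart and the second's overlapped. Its log2 fold change was -0.19 (-0.31 to -0.08), with batch values of -0.21 and -0.19, and without the 5 Chronic mice described above it was -0.24.

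*Hdac2*, a class I histone deacetylase that represses genes of synaptic plasticity, was also lower in 9 of 9 Chronic mice. It was at 79.6, 81.1, 84.2 and 85.3 CPM in the first batch's Acute mice and at 76.5, 76.2 and 78.8 in its Chronic mice. In the second batch the 5 Acute mice ranged from 69.3 to 79.7 CPM and the 6 Chronic mice from 65.1 to 72.1. The groups were apart in the first batch and overlapped in the second. The log2 fold change was -0.10 (-0.16 to -0.04), an unadjusted p of 0.0020, with -0.095 and -0.10 in the 2 batches. Water mice, at 78.3 ± 5.31 CPM, were at the level of Acute mice, 78.6 ± 4.94.

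The remaining genes of the lower group were *Itpr3*, an endoplasmic reticulum calcium channel gated by IP3 (-0.32), *Usp3*, a histone deubiquitinase (-0.20), *Esco1*, which acetylates cohesin (-0.14), *Sp4*, a neuronal zinc finger factor (-0.14), the kinases *Stk38l* (-0.13) and *Hipk3* (-0.10), *Naa30*, an N-terminal acetyltransferase (-0.11), *Fem1c* (-0.10), which selects substrates of a ubiquitin ligase, and *Eif2s3x*, a subunit of the translation initiation factor eIF2 (-0.09). In the second batch *Stk38l* had 23.0 to 24.0 CPM in Acute mice and 19.9 to 20.97 in Chronic mice, with no overlap, and its first-batch log2 fold change was -0.031. *Erich1*, *Itpr3*, *Fam57b* and several others overlap another annotated gene, where Salmon divides shared reads by estimation, and the strand setting is not given in the sources used here.

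**Figure D3:**
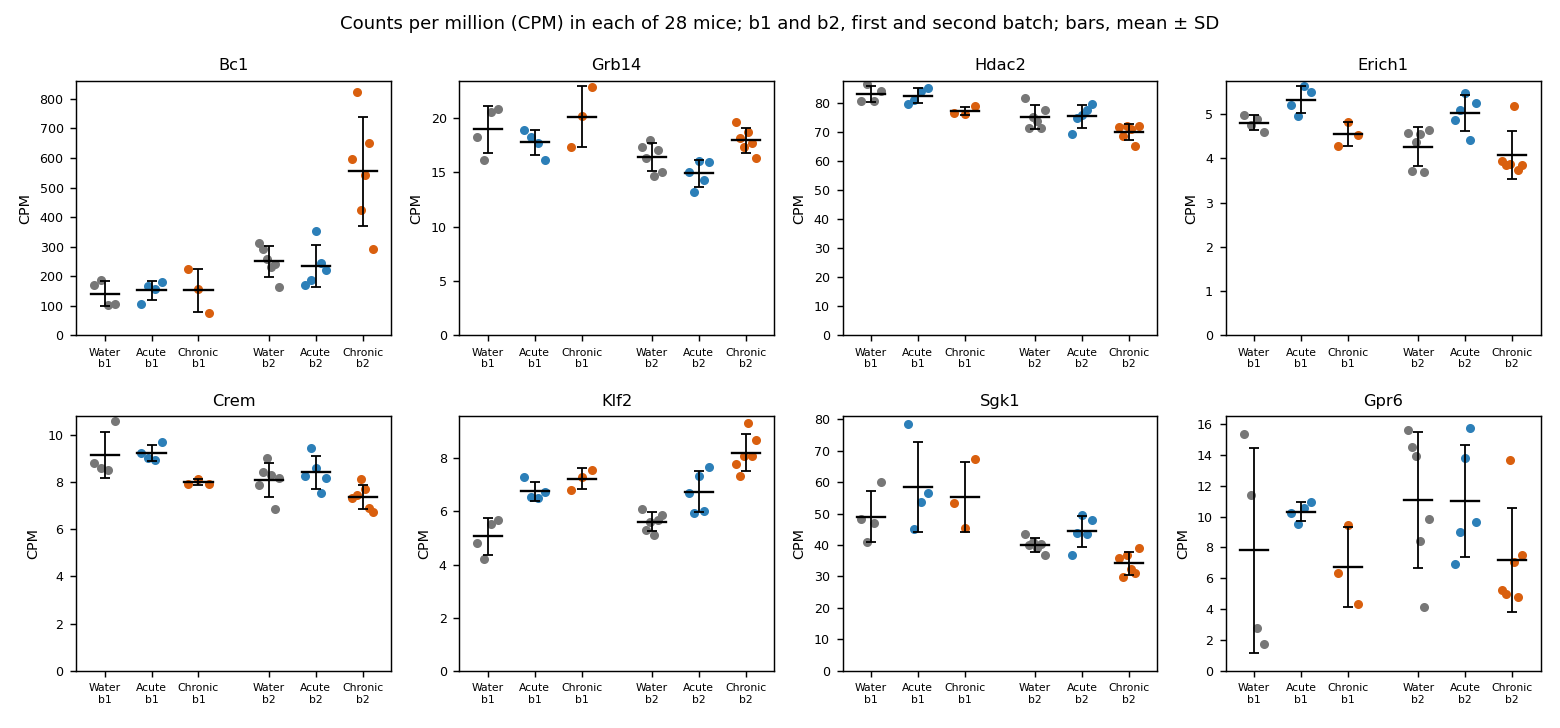
CPM (y axis, from 0) of 8 genes in each mouse, by group and batch (b1 and b2); points are mice, horizontal lines means and bars SD. *Bc1* lies above the Acute mice in 5 of 6 Chronic mice of the second batch and overlaps fully in the first, while *Crem* and *Hdac2* differ by less than their ranges in the second batch.

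Genes of interest to the study had log2 fold changes of -0.31 to 0.24 between the drinking groups apart from *Bc1*. None passed the test. The paper named *Hdac2*, *Sin3a* and *Chd1* as hubs of a predicted protein network and *Sox17* as a candidate upstream regulator. *Klf2*, a zinc finger transcription factor known from endothelium and induced by activity, had 6.50 to 7.29 CPM in the first batch's Acute mice and 6.80 to 7.58 in its Chronic mice, then 5.96 to 7.68 and 7.33 to 9.33 in the second. Both pairs overlapped. All 9 Chronic mice were above the Acute mean of their batch, with a log2 fold change of 0.21 (0.07 to 0.34; adjusted p = 0.998). Against Water mice it was 0.33 in Acute and 0.54 in Chronic mice, values that share the Water group.

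*Kdm3a*, a demethylase of histone H3 lysine 9, was at 33.6 ± 2.12 CPM in Chronic and 35.3 ± 2.01 in Acute mice, a log2 fold change of -0.068 with an interval of -0.14 to 0.0081. *Haghl* was at 50.7 ± 4.27 and 49.0 ± 4.15 CPM, at 0.026 (0.014 without Acute mouse 5) with an interval of -0.05 to 0.10. Both intervals lie within 1.2-fold. *Sin3a*, the scaffold of a deacetylase complex, was at -0.054 (-0.12 to 0.012), and *Chd1*, a chromatin remodeller, at -0.053 (-0.13 to 0.022), with opposite signs in the batches. *Btg2*, an antiproliferative early response gene, was at -0.22 (-0.44 to -0.0031). *Sox17*, an endothelial transcription factor that the paper ties to oligodendrocyte progenitors, was at 0.24 (0.012 to 0.46). In the paper, its knockdown in the amygdala lowered alcohol intake. Of the 30 genes the study ranked first for Acute against Water mice, 21 were lower and 9 higher in Chronic than in Acute mice, 7 and 1 of them below an unadjusted 0.05, beside 2.5% and 1.95% of all genes in those directions, with a median of -0.041. The 30 ranked first for Chronic against Water mice, the top of a longer list, held 18 lower and 12 higher, 7 and 2 below 0.05 against the same shares of all genes, with a median of -0.012 that was -0.03 without Chronic mouse 1 and -0.0073 without Acute mouse 3. The study chose both lists on these mice, so they are not independent evidence of a direction. Both lists also mix genes raised and lowered against Water mice. The counts and medians therefore do not show which drinking group lies nearer to Water mice.

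The median farthest from 0 among the cell type lists belonged to genes of striatal projection neurons. Of 16 listed, 15 were tested and 15 were lower in Chronic mice, with a median log2 fold change of -0.35 against -0.00089 for all genes, and 1 of the 15 was below an unadjusted 0.05, as were 2.5% of all genes in that direction. The medians were -0.32 in the first and -0.35 in the second batch. None passed adjustment, and the spread between mice was wide: the mean log2 CPM of the list, with batch means removed, ran from -0.49 to 0.61 in Acute, from -0.70 to 0.42 in Chronic and from -1.19 to 0.83 in Water mice. In the first batch the 3 Chronic mice, at -0.32 to 0.14, were below the 4 Acute mice, at 0.24 to 0.39, and in the second batch the groups overlapped. Without the 5 second-batch Chronic mice the median was -0.19, and with 2 surrogate variables in the fit it was -0.13.

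Several members encode receptors. *Gpr6*, a receptor of indirect-pathway neurons, had 9.49 to 10.9 CPM in the first batch's Acute mice and 4.32 to 9.48 in its Chronic mice, then 6.90 to 15.8 and 4.80 to 13.7 in the second, a log2 fold change of -0.63 (-1.25 to -0.017). The dopamine receptors *Drd1* and *Drd2* were at -0.31 (-0.64 to 0.021) and -0.43 (-1.03 to 0.17). *Adora2a*, the adenosine receptor that marks indirect-pathway neurons, was at -0.35, and *Ppp1r1b*, which encodes the signalling protein DARPP-32, at -0.33. The summed level of the list was 1463 to 1666 CPM in Acute and 1089 to 1360 in Chronic mice of the first batch, and 995.4 to 1982 and 901.4 to 1718 in the second. In these bulk samples, fewer cells of a type and less RNA per cell cannot be told apart.

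Central amygdala markers went with the striatal list, with 9 of 11 lower and a median of -0.096, at -0.13 and -0.11 in the batches. That median was -0.16 without Acute mouse 3 and -0.055 without the 5 second-batch Chronic mice, and the median score over mice was 0.061 in Acute and 0.053 in Chronic mice. *Nts*, which encodes neurotensin, was lower than the Acute mean of its batch in 9 of 9 Chronic mice, at 25.5 ± 4.96 against 32.5 ± 8.59 CPM, a log2 fold change of -0.31 (-0.59 to -0.036), and Water mice were at 21.9 ± 5.35. *Pdyn*, the precursor of dynorphin, was at -0.38 (-0.81 to 0.05), *Penk*, the precursor of enkephalin, at -0.40 (-0.85 to 0.057), and *Crh* at -0.19 (-0.49 to 0.12), or -0.10 without Chronic mouse 2. These neuropeptides are also made by striatal neurons, apart from *Crh*, and their share in either region was not tested.

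Pallial excitatory markers had the opposite sign in 13 of 14 genes, with a median of 0.078 and 0 genes below an unadjusted 0.05. *Neurod2*, a factor of cortical excitatory neurons, was at 0.22 (-0.08 to 0.52) and *Slc17a7*, the vesicular glutamate transporter, at 0.11 (-0.10 to 0.32). First-batch mice alone gave a median of 0.0087, the fit gave 0.011 without the 5 second-batch Chronic mice, and with 2 surrogate variables it was -0.03. Leaving out Acute mouse 33 gave 0.028 for the list and 0.056 for *Slc17a7*, and leaving out Chronic mouse 38 gave 0.138 and 0.16. Oligodendrocyte markers were lower in 11 of 14 genes with a median of -0.046, though it was 0.011 in the first batch, 0.038 without Acute mouse 33 and -0.084 without Chronic mouse 38. Microglia markers were lower in 10 of 12, median -0.03 (-0.0086 without Chronic mouse 38, -0.047 without Acute mouse 5). Red blood cell markers were higher in 5 of 5, median 0.13 (0.058 without Chronic mouse 1, 0.195 without Acute mouse 3). Choroid plexus and ependyma markers had medians of 0.62 and -0.56 in the earlier and later batch, on a list whose score had an SD of 1.36 between mice.

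**Figure D4:**
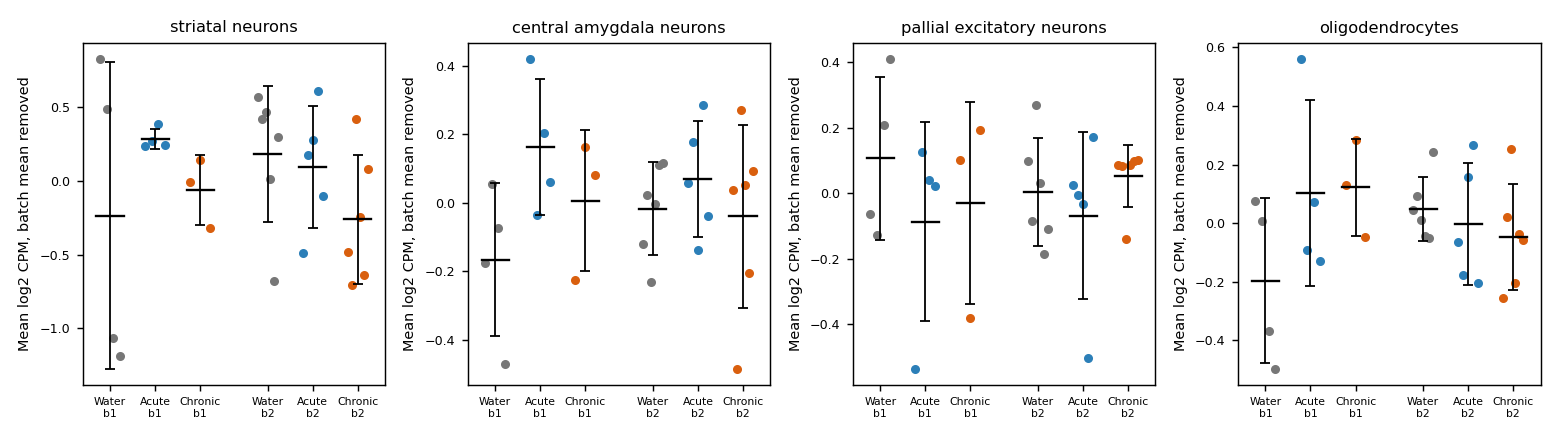
Mean log2 CPM of 4 marker lists in each mouse after removing its batch's mean (y axis, log2), by group and batch (b1 and b2); points are mice, horizontal lines means and bars SD. Striatal scores of Chronic mice average below those of Acute mice in both batches and overlap them in the second, and the Water mice of the first batch span the whole range.

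Glucocorticoid-responsive genes had 4 of 18 members below an unadjusted 0.05, all lower in Chronic mice, against 2.5% of all genes in that direction, and the list's median was -0.036 (-0.017 without Acute mouse 3). *Sgk1*, a kinase induced by corticosteroids, had 45.05, 53.8, 56.4 and 78.5 CPM in the first batch's Acute mice and 45.5, 53.2 and 67.3 in its Chronic mice. In the second batch the Acute mice had 36.9, 43.5, 43.8, 48.1 and 49.5 CPM, and the 6 Chronic mice ranged from 29.9 to 39.0. The first batch overlapped fully, and in the second only Acute mouse 1 fell within the Chronic range. The log2 fold change was -0.26 (-0.46 to -0.068), at -0.078 and -0.37 in the batches, and -0.093 without the 5 second-batch Chronic mice.

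*Sult1a1*, a sulfotransferase, was lower in 9 of 9 Chronic mice, at 3.58 ± 0.483 against 4.83 ± 1.16 CPM, with a log2 fold change of -0.42 (-0.71 to -0.12) and -0.43 and -0.42 in the batches. *Arl4d*, a small GTPase, was at -0.31 (-0.52 to -0.10) and *Ddit4*, an inhibitor of mTORC1, at -0.16 (-0.29 to -0.016). *Fkbp5*, the co-chaperone of the glucocorticoid receptor, was at -0.059 (-0.15 to 0.036). In Acute against Water mice *Sgk1*, *Sult1a1*, *Arl4d* and *Ddit4* were at 0.18, 0.31, 0.32 and 0.12, and in Chronic against Water mice at -0.078, -0.10, 0.012 and -0.03, in comparisons that share mice.

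A list of non-coding RNAs, long ones kept in the nucleus or made by neurons and the short *Bc1*, was higher in 9 of 11 members, with a median of 0.095 that was 0.051 without Chronic mouse 37. Below an unadjusted 0.05 were 3 of them, against 1.95% of all genes in that direction. Beside *Bc1*, whose value rests on the 5 second-batch Chronic mice, these were *Miat*, at 244 ± 27.3 CPM in Chronic and 208 ± 31.8 in Acute mice (0.23, 0.061 to 0.39), and *Neat1*, the scaffold of paraspeckles, at 40.7 ± 12.9 and 35.3 ± 7.51 (0.24, 0.025 to 0.46). Both were larger in the first batch, at 0.34 and 0.42, than in the second, at 0.15 and 0.14, a difference that did not pass the test between batches. Circadian clock genes were higher in 14 of 19, with a median of 0.035. *Nr1d1*, the repressor REV-ERBα, was at 0.12 and *Bhlhe41* at 0.12, while *Nfil3*, which acts against the D-box activators, was at -0.15.

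Chromatin regulators were divided. Of 18 histone deacetylases, their corepressors and *Sin3a*, 12 were higher and 6 lower, with 2 in each direction below an unadjusted 0.05, against 1.95% and 2.5% of all genes, and a median of 0.022, or 0.0083 without Chronic mouse 2. *Rbbp4*, a histone-binding subunit shared by deacetylase complexes, was lower like *Hdac2*, at -0.09 (-0.16 to -0.024). *Hdac10*, another deacetylase, was at 0.14 (0.0025 to 0.27). Of 36 chromatin remodellers and histone methylation enzymes, 22 were higher and 14 lower, with a median of 0.015, at 0.08 and -0.019 in the batches and 0.00015 without Chronic mouse 38.

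Several lists of receptors and metabolism had medians near that of all genes. GABA-A receptor subunits had a median of -0.0075 over 14 genes, with *Gabra4*, the α4 subunit of extrasynaptic receptors, lower in 9 of 9 Chronic mice at -0.11 (-0.21 to -0.019). Ionotropic glutamate receptor subunits had a median of 0.023 over 17 genes, with *Grin2d* at 0.14 (0.012 to 0.26). *Htr1b*, a serotonin autoreceptor, was lower in 8 of 9 Chronic mice at -0.25 (-0.46 to -0.043), within a list of 17 monoamine receptors whose median was -0.026. Cholesterol synthesis genes had a median of -0.0043 over 22 genes, with the sterol carrier *Stard4* at -0.11 (-0.20 to -0.0088). Ethanol and acetate metabolism, heat shock chaperones, the unfolded protein response and innate immune signalling had medians of -0.0043, -0.018, 0.0016 and 0.00062. Each median given so far in this paragraph changed sign when 1 mouse was left out, within -0.065 to 0.056. Farther from 0 were the endocannabinoid system and neuropeptides. The endocannabinoid system had 8 of 11 genes higher and a median of 0.052 (0.027 without Acute mouse 33, 0.080 without Chronic mouse 38). Neuropeptides had a median of -0.064 (-0.027 without Chronic mouse 5, -0.11 without Chronic mouse 3), with batch values of -0.14 and 0.051.

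Genes of protein synthesis and respiration took opposite signs in the batches. Over 83 cytosolic ribosomal proteins first-batch mice gave a median of -0.096, second-batch mice 0.059, and both together -0.0086, or 0.008 without Acute mouse 33. Mitochondrial ribosomal proteins were at -0.06 and 0.038 over 73 genes, and nuclear oxidative phosphorylation subunits at -0.083 and 0.047 over 77. *Rpl39*, a ribosomal protein, was at -0.23 in first-batch and 0.24 in second-batch mice, with an unadjusted p of 1.9e-05 and an adjusted p of 0.308 for the difference. *Rpl39* was picked after its values were seen, and that 0.308 was the smallest adjusted p for a batch difference among all 16266 genes. Its values were 30.2 to 34.5 CPM in the first batch's Acute mice against 25.2 to 28.4 in its Chronic mice. Second-batch values were 21.3 to 24.0 CPM in Acute and 24.5 to 28.4 in Chronic mice. The groups were thus apart in both batches, in opposite directions. Of all genes, 6.21% had groups apart among first-batch mice and 0.4% among second-batch mice. *Rpl30* had the same sign in both batches, at -0.11 (-0.20 to -0.032). Mitochondrially encoded subunits were lower in 10 of 13 genes, with a median of -0.025 that was -0.11 in first-batch and 0.013 in second-batch mice, -0.06 without Chronic mouse 5 and -0.011 without Acute mouse 34. The list was led by *mt-Nd4l* at -0.12, which overlaps *mt-Nd4*.

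**Figure D5:**
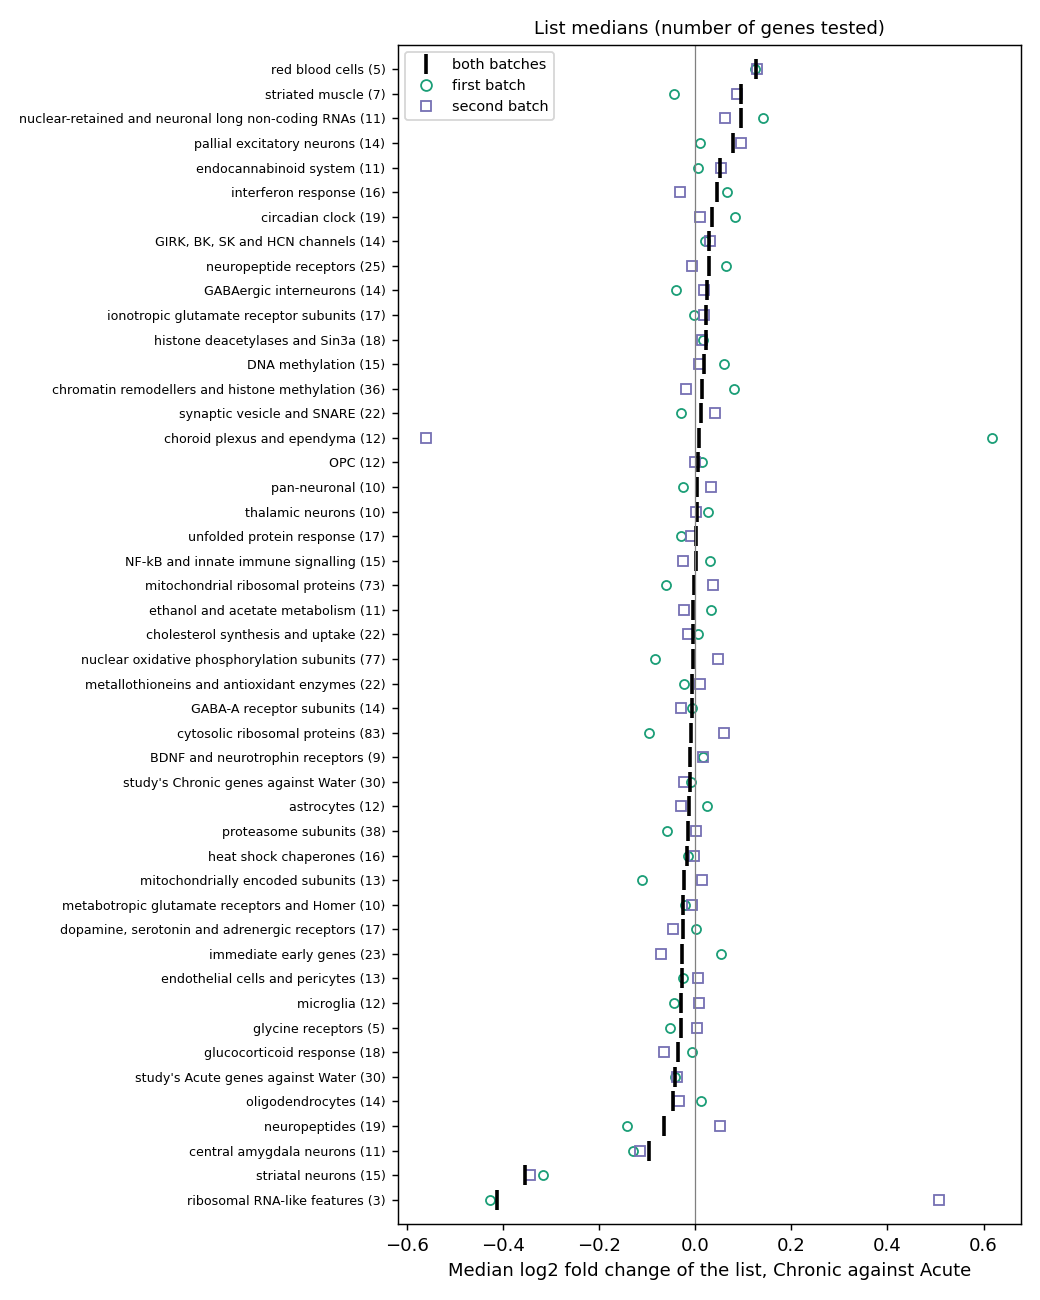
Median log2 fold change, Chronic over Acute mice (x axis), of each gene list (rows, with the number of genes tested), for both batches together and for each batch. The striatal list lies near -0.35 in all 3, while choroid plexus, ribosomal protein and respiration lists lie on opposite sides of 0 in the 2 batches.

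The smallest edgeR p of all belonged to *CT010467.1*, a ribosomal RNA feature on chromosome 17, chosen for mention after its values were seen. It had 861 to 1650 CPM in the first batch's Acute mice and 567 to 979 in its Chronic mice, but 0.404 to 0.720 and 0.555 to 1.39 CPM in the second batch. The log2 fold change was -0.72 over both batches, -0.88 in the earlier one and 0.51 in the later. The exact permutation test within batches, on log2 CPM, gave p = 0.731. Of the 9 Chronic mice, 5 were above and 4 below the Acute mean of their batch. *Lars2*, the mitochondrial leucyl-tRNA synthetase, was also higher in the first batch, though by less, and its difference had the same sign in both, at -0.37 and -0.089. Its CPM was 118 to 152 in Acute and 85.8 to 127 in Chronic mice of the first batch, 17.4 to 21.5 and 15.2 to 20.97 in the second, with a log2 fold change of -0.23. The part of such ribosomal RNA in other values of the first batch was not tested.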

How the data were processed

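Amygdala RNA was sequenced from 28 mice. The authors quantified paired-end reads with Salmon 0.14.1 after FastQC 0.11.8 and deposited estimated counts per gene, 1 table a batch. The values are whole numbers, not adjusted for batch, raw and not normalized, and depth per mouse sets the counting error. The 49477 identifiers in both tables were joined, and the 16266 genes averaging 10 or more counts were kept, so genes listed for 1 batch only were not tested. Groups and batches came from the labels.

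Chronic was tested against Acute with edgeR 4.0.16 (R 4.3.3), using the quasi-likelihood test with TMM normalization, a model of group and batch over all 28 mice, and Benjamini-Hochberg adjustment at 0.05. The study instead adjusted the counts for batch with ComBat-seq and tested with DESeq2, which was run as an alternative. CPM use TMM library sizes. Alternatives used DESeq2 1.42.0, limma 3.58.1 and sva 3.50.0. Simulated data were used to check the edgeR test. Coordinates and the *Bc1* sequence are from GENCODE M21 (GRCm38). No pair of mice of 1 group and batch looked like a repeat deposit of 1 library, the lowest of 55 reduced chi-square values being 3.88.

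Genes named were the 12 smallest p in each direction with at least 50 counts and 1 sign in both batches, the 2 smallest p of each list, members of lists described, and 10 genes of interest to the study. Members and lists were chosen with earlier results of these data known, and *Ghsr*, *Nfix*, *Rpl39*, *CT010467.1*, *Actc1*, the muscle list and the ribosomal RNA features after their values were seen. Some genes that this rule selects are not reported here. Mice are separate animals, and each p-value sets a difference against the spread between mice.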

Additional observations from a re-analysis of the deposited data

Results flagged for a closer look

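Single mice far from the rest of their group were looked for in 65 named genes and 47 lists, in Acute and in Chronic mice, as a gap to the nearest mouse divided by the group's range (log2 CPM with batch means removed). Chance gives about 1 in 20 groups, and 19 of 224 exceeded the limit for 9 mice. Acute mouse 33 was lowest for *Foxk1* (0.542) and for the scores of immediate early genes (0.516), the endocannabinoid system (0.607) and GIRK, BK, SK and HCN channels (0.587), and highest for *Eif2s3x* (0.532). Acute mouse 5 was lowest for *Alox5ap* (0.585) and for the scores of the study's Acute genes (0.644), mitochondrial ribosomal proteins (0.585) and proteasome subunits (0.612). Acute mouse 4 was lowest for *Naa30* (0.547), and Acute mouse 1 for the score of BDNF and neurotrophin receptors (0.539). Among Chronic mice, mouse 4 was highest for *Erich1* (0.566), mouse 3 for *Naa30* (0.525), mouse 1 for *Rpl30* (0.503) and mouse 39 for the glucocorticoid score (0.532). Chronic mouse 5 was lowest for *Hdac2* (0.515), mouse 2 for *mt-Nd4l* (0.523), mouse 38 for the pan-neuronal score (0.624) and mouse 1 for metabotropic glutamate receptors and Homer (0.649).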

How the results depend on the processing

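The count of called genes was 0 under 13 of 14 other settings. Without a filter it was 1, *Actc1* (adjusted p = 0.0052), and 1600 of 33467 genes were below an unadjusted 0.05. Elsewhere that second count ran from 550 (mean of at least 100 counts) to 897, and leaving out 1 mouse moved it between 526 (without Chronic mouse 2) and 979 (without Chronic mouse 3), with calls at 0. Label numbers did not pair the mice: same-numbered mice of the second batch correlated at -0.346 to 0.15, 0 of 5 matched best with their own number, and the fit with the replicate block gave 0 calls and 780 genes below 0.05, or 705 with GC content and length offsets. Leaving out second-batch Chronic mice 1 to 5, chosen after seeing the data, gave 0 calls and 617 genes.

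The difference between batches gave 0 to 1 calls when 1 mouse was left out: *Rab11fip3* without Chronic mouse 37, *Prob1* without Water mouse 40 and *Rpl39* without Water mouse 1. The total count difference had p from 0.0155 to 0.0805, above 0.05 without Acute mouse 36, 1, 2, 3, 4 or 5 or Chronic mouse 39, 1, 2, 3, 4 or 5. Named genes that changed sign were *Chd1* (0.022), *Rpl39* (-0.23) and *Myh6* (-0.044) in the first batch alone, *CT010467.1* (0.51) in the second, *Slc17a7* (-0.023) with 2 surrogate variables, and *Rpl39* (-0.056) without the 5 Chronic mice. The other 60 of 65 genes recomputed kept their sign in every fit. Many of them were chosen for a small p, and some for 1 sign in both batches. The latter could not reverse in a single-batch fit, so this count does not measure robustness. Of 47 list medians, 22 changed sign when 1 mouse was left out, 35 under some other setting, and 11 in no fit. The causes were not tested. At these depths, differences under about 1.2-fold could not be resolved for most genes below 100 counts.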

Other observations

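Further muscle genes had high values in second-batch Chronic mice. *Mb*, which encodes myoglobin, was at 1.08, 1.58, 1.74, 1.15 and 1.26 CPM in Chronic mice 1 to 5, at 0.155 in Chronic mouse 6, and at most 0.457 in any other mouse of either batch. *Myl2*, a ventricular myosin light chain, was at 1.77, 1.58, 1.29, 0.998 and 0.959 CPM in mice 1 to 5 and at 0.309 in mouse 6, while no Acute mouse of that batch exceeded 0.514. The creatine kinase *Ckm* was at 0.492, 0.495, 0.496, 0.150 and 0.303 CPM in the same 5 mice and at 0.0515 in mouse 6. Acute mice reached 0.231 CPM of *Ckm*, so mouse 4 lay within their range. These genes had means below 10 counts, and in the fit without a count minimum each had an adjusted p of 0.819 (edgeR).

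*Myh6*, the heart myosin heavy chain, did reach the minimum, at 1.75 to 3.47 CPM in the second batch's Chronic mice and 0.876 to 2.004 in its Acute mice. Its log2 fold change was 0.78 (0.26 to 1.29), at 1.09 in the second batch, and 0.072 without Chronic mice 1 to 5. *Acta1*, *Tnni1* and *Myh7* did not follow: *Acta1* was at 7.18 to 8.73 CPM in those Chronic mice and 6.6 to 8.79 in Acute mice of the batch. Of 12 muscle genes 7 were tested, 4 higher and 3 lower, 2 of them below an unadjusted 0.05 against 4.44% of all genes. The other of these was *Mybpc1*, a myosin-binding protein of slow muscle, at 2.01 (0.68 to 3.34), which was highest in Chronic mouse 38 of the first batch, at 3.70 CPM, and at 0.0496 CPM in Chronic mouse 3. For *Mybpc1* the exact permutation test within batches, on log2 CPM, gave p = 0.213. The origin of these transcripts was not tested.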
